A study of Mus musculus with 69 samples.

Results

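Day 8 embryoid bodies carrying a mutation in EZH2 were set against wild-type embryoid bodies of the same age by RNA-seq. All libraries labelled as mutant or wild type at 8 days in the wild-type and mutant expression table entered the comparison, 3 mutant and 3 wild-type, which makes 6 of the 69 samples of the series. Both groups were derived from CJ7, a mouse line of embryonic stem (ES) cells that was kept on mitotically arrested mouse fibroblast feeders with LIF and serum. Embryoid bodies are aggregates in which ES cells differentiate without LIF, and here they were formed in hanging drops in serum medium. The labels say "mutant" or "wild type" and give neither the allele nor the number of clones, so a difference between the groups cannot be told apart from one between cell clones. ES cells (day 0) and day 4 embryoid bodies of both genotypes, 3 libraries each, and day 8 embryoid bodies given 4 µM GSK343, an EZH2 inhibitor, or its vehicle DMSO, 2 libraries each and with no mutation labelled, were used beside them. GSK343 had been present since before differentiation began.

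EZH2 is the main catalytic subunit of Polycomb repressive complex 2 (PRC2), which places the repressive mark H3K27me3 on histone H3. EED and SUZ12 are its other core subunits, EZH1 is the less active paralog of EZH2, and PRC1 is the partner complex that ubiquitinates histone H2A. In ES cells the mark lies over CG-rich promoters of developmental regulators. As embryoid bodies differentiate, pluripotency genes are silenced and genes of mesoderm, heart, blood and endoderm come on.

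Reads recovered from the values numbered 12.9, 7.17 and 17.7 M (mega) in mutant libraries 1, 2 and 3 and 14.4, 9.0 and 21.2 M in wild-type libraries 1, 2 and 3. The ribosomal RNA gene Rn45s held 38% of the reads of mutant library 2 and 24.5% of those of wild-type library 2, and 4.20% to 6.91% in the other 4. Values are RPKM, reads scaled to gene length and to a library size that was not the plain total of recovered reads. In mutant library 2, 1 read at 1 kb stood for 0.192 RPKM, more than division by its recovered total would give. How that size was set is not stated in the sources read. Fold changes are differences of log2(RPKM + 1) between mutant and wild type with their standard error (SE), which understate the change of genes at low values. Each p-value comes from limma, adjusted by Benjamini-Hochberg over 14180 genes, with a threshold of 0.05, and a gene past it is said to have risen or fallen, or to be called. Such p-values measure no more than the spread among libraries, since separate cultures are not stated by the labels. That spread was pooled over all 18 wild-type and mutant libraries of ES cells, day 4 and day 8, not the 6 day 8 libraries alone. The median SD on the log2(RPKM + 1) scale was 0.2878 in mutant and 0.2585 in wild type at day 8. It was 0.2345 and 0.2405 at day 4 and 0.228 and 0.2844 in ES cells. The 6 day 8 libraries did not sort by genotype over all genes. Wild-type library 3 correlated with wild-type libraries 1 and 2 at r = 0.904 and 0.897 across genes and with mutant library 3 at 0.969, while mutant library 1 correlated at 0.961 and 0.966 with wild-type libraries 1 and 2 and at 0.934 and 0.933 with the other mutant libraries.

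The targeted gene and the Y-linked genes separated the libraries as labelled, 3 and 3. Ezh2 stood at 18.3, 22.2 and 25.96 RPKM in mutant libraries 1, 2 and 3, against 42.8, 41.4 and 45.8 RPKM in wild-type libraries 1, 2 and 3 (log2 fold change -0.95, SE 0.17, limma adjusted p = 0.0185). Each mutant library was below each wild-type library, and reads from the gene were still present in the mutant. Eif2s3y, a translation initiation factor gene on the Y chromosome, was at 0.281, 0.107 and 0.0778 RPKM in mutant libraries, against 47.9, 42.97 and 78.8 RPKM in wild-type libraries (log2 fold change -5.59, SE 0.33, limma adjusted p = 2.95e-07). The RNA helicase gene Ddx3y (-4.06, limma adjusted p = 0.000262) and the histone demethylase paralog Uty (-3.83, limma adjusted p = 1.10e-05) fell too, and both were listed at 0 in mutant library 2 and lay below 0.1 RPKM in the other mutant libraries. Xist, the X inactivation RNA, was low in both groups, at 0.508, 0.182 and 1.22 RPKM in the mutant and 0.391, 0.348 and 0.588 RPKM in wild type, and the 3 Y-linked genes were already low in mutant ES cells, with log2 fold changes of -4.33, -3.16 and -3.07 for Eif2s3y, Ddx3y and Uty. The near absence of Y-linked transcripts in the mutant line is a second difference between the lines, beside Ezh2, and its part in the other changes was not tested.

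At day 8, 184 genes rose in mutant embryoid bodies (1.30% of those tested) and 30 fell (0.212%), together 1.51%, and all but 4 of the 214 had groups that did not overlap. Over all genes tested, 9.46% had every mutant library above every wild-type library and 6.40% had every mutant library below. The median log2 fold change of all genes was -0.02. The number of calls depended on which libraries were used. Leaving out wild-type library 1 left 11 higher and 5 lower, and leaving out wild-type library 2 left 15 and 6. Leaving out mutant library 2 left 47 and 5, and leaving out mutant library 3 left 36 and 6. Leaving out mutant library 1 gave 355 and 176, and leaving out wild-type library 3 gave 825 (5.82% of genes) and 483 (3.41%). Ezh2 itself was not called when wild-type library 1 or 2 or mutant library 2 was left out. With day 8 libraries alone in the fit, so that ES cell and day 4 libraries no longer helped to estimate the spread, 0 genes were called higher and 3 lower, with 1626 at an unadjusted p under 0.05, against 2035 with all 18 libraries. Voom on the recovered reads called 39 higher and 8 lower, of which 46 were among the 214.

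**Figure D1:**
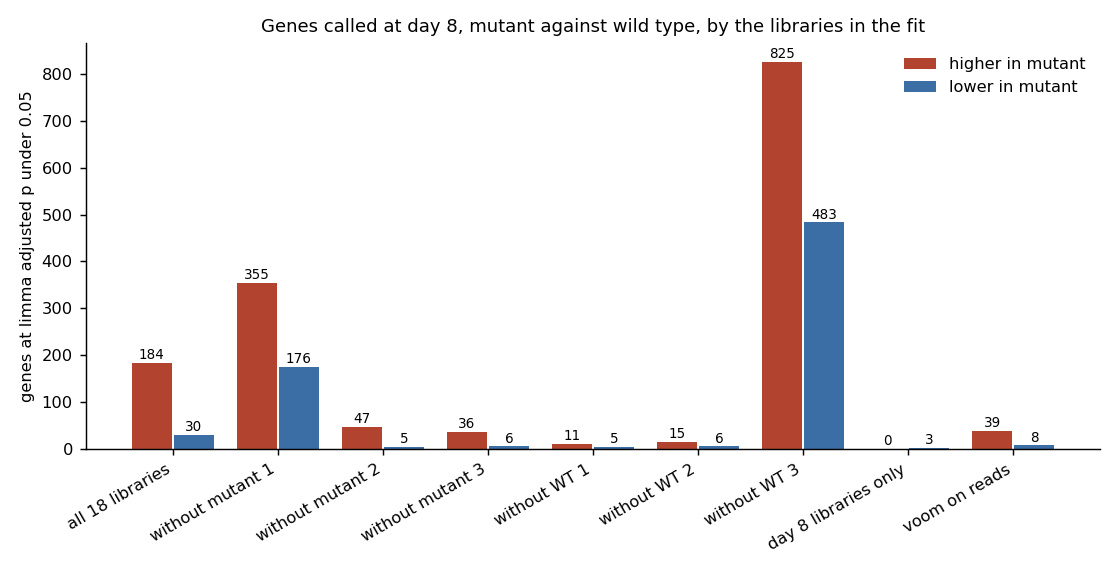
Number of genes at a limma adjusted p under 0.05 (y axis) that were higher (red) or lower (blue) in EZH2 mutant than in wild-type day 8 embryoid bodies, with all 18 libraries in the fit, with 1 day 8 library left out, with day 8 libraries only, and by voom on recovered reads. The count ran from 0 higher and 3 lower with day 8 libraries only to 825 higher and 483 lower without wild-type library 3.

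There were 16 genes that passed in each of the 6 leave-one-out fits, 11 higher and 5 lower. Those higher were Cdkn2a, Aire, Lgals2, Apoa2, Pcsk6, Zbtb32, 2410137M14Rik, Lgmn, Vax2os, Pnpla3 and Susd3, and those lower were Crabp2, Kif5c and the 3 Y-linked genes. With day 8 libraries alone the Y-linked genes passed, and the other 13 had adjusted p-values from limma between 0.0727 and 0.193. By voom 13 of the 14 that could be tested passed, the exception being Aire (limma voom adjusted p = 0.0589).

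Cdkn2a had the largest rise among these 16. It encodes the cell cycle inhibitor p16INK4A and, from an upstream start, p19ARF, which stabilises p53, and it is a well-known PRC2 target. Its neighbour Cdkn2b encodes the related inhibitor p15INK4B. In the mm10 build, with which RefSeq's GRCm38.p6 table shares coordinates, Cdkn2a spans chr4:89274473-89294619 and Cdkn2b chr4:89306289-89311032, both on the minus strand and 11669 bases apart. One H3K27me3 peak, merged by the authors over the wild-type stages, covers both genes at chr4:89264529-89316559. The authors' Suz12 list of wild-type day 8 library 2 has a peak over each of the 3 promoters. Neither of the 2 mutant day 8 Suz12 lists has one there, although the second has a peak elsewhere within 1 kb of Cdkn2a. Over all 11154 genes with a start, 12.7% had a wild-type Suz12 peak within 1 kb of it. The shares were 0.977% and 7.78% in the mutant lists, so the lack of a peak there does not show a loss of binding. The RefSeq promoters, 250 bases before to 50 after a start, are shown because the mark and the Suz12 peaks lie over them. CG dinucleotides are in capitals, and they number 45 in the upstream Cdkn2a window at chr4:89294570-89294869, 12 in the inner one at chr4:89282143-89282442 and 18 in that of Cdkn2b at chr4:89310983-89311282, all on the minus strand.
Cdkn2a upstream start: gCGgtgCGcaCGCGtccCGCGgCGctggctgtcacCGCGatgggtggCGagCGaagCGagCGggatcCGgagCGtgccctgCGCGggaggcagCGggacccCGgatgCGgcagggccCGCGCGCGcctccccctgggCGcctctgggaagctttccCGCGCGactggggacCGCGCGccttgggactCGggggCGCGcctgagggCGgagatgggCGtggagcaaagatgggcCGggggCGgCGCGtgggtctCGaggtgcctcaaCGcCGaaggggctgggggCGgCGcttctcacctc
Cdkn2a inner start: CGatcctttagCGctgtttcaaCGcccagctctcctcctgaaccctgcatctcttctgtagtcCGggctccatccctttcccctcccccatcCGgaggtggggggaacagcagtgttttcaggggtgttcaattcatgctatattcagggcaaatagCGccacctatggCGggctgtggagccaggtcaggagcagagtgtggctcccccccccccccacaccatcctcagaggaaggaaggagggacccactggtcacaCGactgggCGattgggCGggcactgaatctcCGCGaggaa
Cdkn2b: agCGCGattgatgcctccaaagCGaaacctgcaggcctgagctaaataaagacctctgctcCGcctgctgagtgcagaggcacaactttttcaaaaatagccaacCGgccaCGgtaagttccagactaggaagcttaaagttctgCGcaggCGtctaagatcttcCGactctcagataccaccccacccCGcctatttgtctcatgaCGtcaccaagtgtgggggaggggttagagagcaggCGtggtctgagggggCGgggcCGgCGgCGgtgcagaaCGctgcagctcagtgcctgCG

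Cdkn2a stood at 31.6, 23.8 and 10.5 RPKM in mutant libraries 1, 2 and 3, against 1.49, 1.69 and 1.05 RPKM in wild-type libraries 1, 2 and 3. All mutant libraries were far above all wild-type libraries, and wild-type library 3, which correlated best with a mutant library, had the lowest value (log2 fold change 3.14, SE 0.38, limma adjusted p = 0.001504, leave-one-out range 2.82 to 3.57). Cdkn2b was at 7.21, 4.54 and 4.55 RPKM in the mutant, against 0.461, 1.204 and 0.571 RPKM in wild type, again without overlap (log2 fold change 1.88, SE 0.39, limma adjusted p = 0.0311). Cdkn2b was called in 2 of the 6 leave-one-out fits, those that dropped mutant library 1 or wild-type library 3, and its log2 fold change ranged over 1.69 to 2.06 in the 6. A gene called in these same 2 of the 6 fits is said here to have a limited call. Of the other inhibitors, Cdkn1a, Cdkn1b, Cdkn2c and Cdkn2d lay between -0.29 and -0.10 and Cdkn1c at -1.75 (limma adjusted p = 0.0946), none called. Of the 20 cell cycle inhibitors and p53 targets 2 rose and 0 fell, beside 1.30% and 0.212% of all genes, with a median of -0.04. The p53 targets Mdm2 (0.29) and Ccng1 (-0.26) were not among those called. The cell division list had 0 of 24 called and a median of -0.04, and its mean level on the log2(RPKM + 1) scale was 5.39, 5.93 and 5.69 in mutant libraries and 5.60, 5.61 and 5.97 in wild-type libraries.

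**Figure D2:**
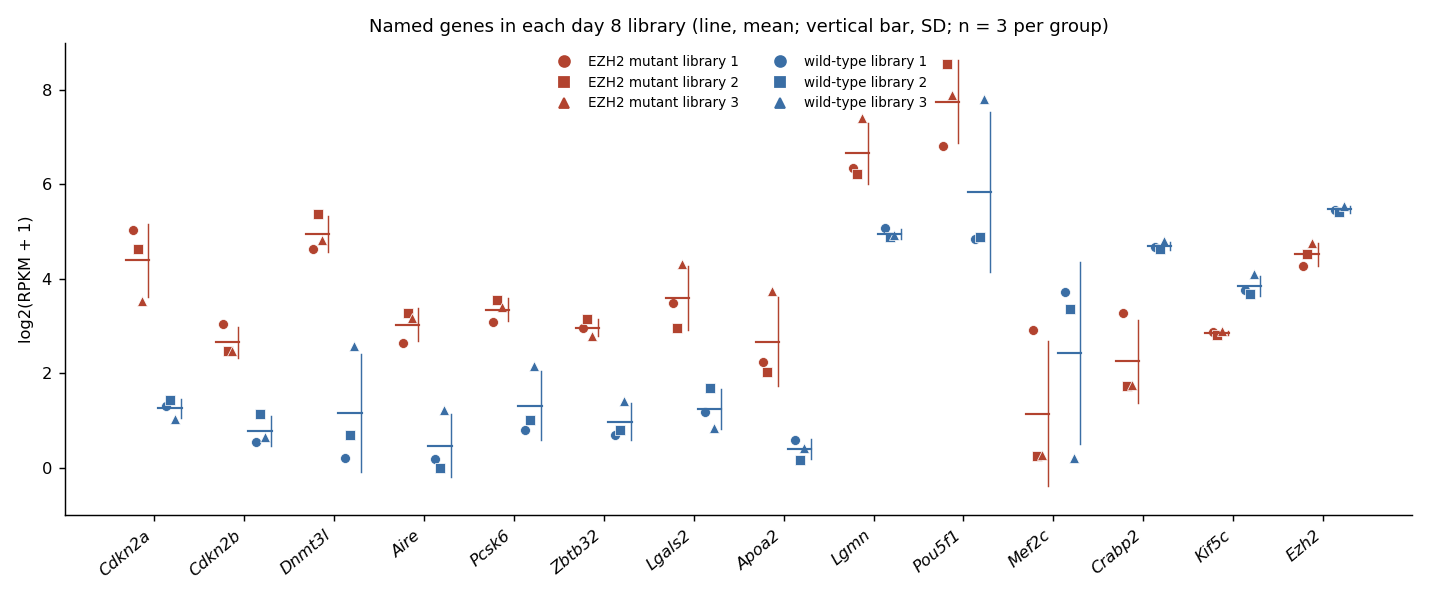
Level of 14 genes on the log2(RPKM + 1) scale (y axis) in each day 8 library, mutant in red left of wild type in blue, with marker shapes for libraries 1, 2 and 3, a line at the mean and a vertical bar for the SD (n = 3 per group). Cdkn2a, Zbtb32, Lgals2, Apoa2 and Lgmn were apart in every library, whereas Pou5f1 set wild-type library 3 beside the mutant libraries. The heart regulator Mef2c set wild-type library 3 beside mutant libraries 2 and 3, and mutant library 1 on the side of wild-type libraries 1 and 2.

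Called genes shared a single H3K27me3 peak in 4 pairs of neighbours, and both members of each pair rose, as did 184 of all 214 called genes. The peaks were picked for holding called genes, and how many peaks hold neighbouring tested genes was not counted. Besides Cdkn2a and Cdkn2b the pairs were Aire with Dnmt3l at chr10:78041354-78044806, Vax2os with Vax2 at chr6:83674389-83739358, and Tmc6 with Tmc8 at chr11:117777731-117785351. The last 3 pairs overlap in their annotated spans, by 1324, 963 and 610 bases, and whether counting used strand is not stated in the sources read, so the members of each cannot be fully told apart. Dnmt3l, the catalytically inactive cofactor of the de novo DNA methyltransferases, was at 23.96, 40.7 and 27.5 RPKM in mutant libraries, against 0.153, 0.628 and 4.95 RPKM in wild-type libraries (log2 fold change 3.79, SE 0.68, limma adjusted p = 0.01602). The groups did not overlap, and wild-type library 3 was the highest of its group. Dnmt3l had a limited call. Aire, a transcriptional regulator best known for switching on tissue-restricted genes in the thymus, was at 5.21, 8.697 and 8.06 RPKM, against 0.144, 0 and 1.34 RPKM (log2 fold change 2.56, SE 0.37, limma adjusted p = 0.00453). Its start lies on the minus strand and that of Dnmt3l on the plus strand, and the H3K27me3 peak covers both promoters, shown here because they share that peak. RefSeq has 2 further Dnmt3l starts, with windows at chr10:78049592-78049891 and chr10:78055085-78055384, which lie outside the peak. The promoters shown hold 16 and 6 CG dinucleotides (capitals) in windows at chr10:78043561-78043860 for Aire and chr10:78042037-78042336 for Dnmt3l.
Aire: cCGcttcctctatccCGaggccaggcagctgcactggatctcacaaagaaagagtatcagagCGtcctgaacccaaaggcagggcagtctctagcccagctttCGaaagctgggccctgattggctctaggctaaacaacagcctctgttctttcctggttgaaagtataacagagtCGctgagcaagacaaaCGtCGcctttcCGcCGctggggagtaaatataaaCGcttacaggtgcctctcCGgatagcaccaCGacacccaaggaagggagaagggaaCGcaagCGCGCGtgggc
Dnmt3l: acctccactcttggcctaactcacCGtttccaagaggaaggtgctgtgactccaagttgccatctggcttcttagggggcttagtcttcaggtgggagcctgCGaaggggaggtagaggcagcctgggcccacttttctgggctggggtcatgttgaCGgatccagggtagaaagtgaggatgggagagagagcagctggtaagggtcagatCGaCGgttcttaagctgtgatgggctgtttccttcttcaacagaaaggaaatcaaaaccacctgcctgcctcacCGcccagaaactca

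Vax2 encodes a homeobox factor of the ventral eye, and Vax2os is the noncoding RNA on its opposite strand. Vax2os was at 1.31, 2.39 and 1.63 RPKM in the mutant, against 0, 0 and 0.223 RPKM in wild type (log2 fold change 1.36, SE 0.17, limma adjusted p = 0.00216), and Vax2 at 1.04, 2.72 and 1.31 RPKM, against 0.138, 0.0945 and 0.188 RPKM (log2 fold change 1.19, SE 0.21, limma adjusted p = 0.0151). Both were close to silent in every wild-type library, library 3 included, and Vax2 lost its call when wild-type library 1 or 2 was left out. Tmc6 and Tmc8, transmembrane channel-like genes, had log2 fold changes of 0.80 and 1.01 and limma adjusted p-values of 0.0448 and 0.0448. Tmc6 had a limited call, and Tmc8 was called in 1 leave-one-out fit, that without wild-type library 3. Of the 29 Polycomb-repressed developmental regulators measured, Vax2 alone was called, beside 1.30% of all genes called higher and 0.212% lower. That list had a median of -0.27.

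A further 5 genes that held in every leave-one-out fit have varied roles. Pcsk6, a proprotein convertase that cleaves the Nodal precursor, was at 7.51, 10.8 and 9.57 RPKM in mutant libraries, against 0.747, 1.003 and 3.42 RPKM in wild-type libraries (log2 fold change 2.03, SE 0.29, limma adjusted p = 0.00453). Zbtb32, a zinc finger repressor studied in lymphocytes, was at 6.82, 7.84 and 5.92 RPKM, against 0.613, 0.755 and 1.67 RPKM (log2 fold change 2.00, SE 0.26, limma adjusted p = 0.00284). In both genes the mutant libraries lay close together and wild-type library 3 was the highest of its group. Pnpla3, a lipid droplet lipase gene, was at 1.62, 2.31 and 2.12 RPKM, against 0.351, 0.258 and 0.513 RPKM (log2 fold change 1.13, SE 0.16, limma adjusted p = 0.00366), and Susd3, a membrane protein gene, at 1.07, 1.35 and 1.25 RPKM, against 0.171, 0.1404 and 0.373 RPKM (log2 fold change 0.86, SE 0.12, limma adjusted p = 0.00366). The RIKEN gene 2410137M14Rik rose by 1.75 with a limma adjusted p of 0.00449. Pcsk6 and Susd3 lie within 1 kb of an H3K27me3 peak, and Zbtb32, Pnpla3 and 2410137M14Rik do not.

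Visceral endoderm is the nutritive epithelium that surrounds the early embryo. Of 22 measured genes for its secreted and uptake proteins 8 rose in mutant embryoid bodies and 0 fell, beside 1.30% and 0.212% of all genes. All 22 had a positive fold change, and the median was 1.77, against -0.02 for all genes. The mean level of the list on the log2(RPKM + 1) scale was 4.73, 3.91 and 5.54 in mutant libraries 1, 2 and 3 and 3.32, 3.50 and 2.70 in wild-type libraries 1, 2 and 3. Each mutant library was above each wild-type library, and wild-type library 3 was the lowest of all. In bulk samples, fewer cells of a type and less RNA per cell cannot be told apart.

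Apoa2, an apolipoprotein of high-density lipoprotein, was at 3.76, 3.07 and 12.4 RPKM in mutant libraries, against 0.499, 0.128 and 0.34 RPKM in wild-type libraries (log2 fold change 2.28, SE 0.31, limma adjusted p = 0.00304). Cubn, which encodes the uptake receptor cubilin, was at 21.3, 14.9 and 115 RPKM, against 2.33, 2.89 and 5.63 RPKM (log2 fold change 2.97, SE 0.69, limma adjusted p = 0.0471), and Amn, its membrane anchor amnionless, at 2.58, 7.44 and 15.5 RPKM, against 0.275, 0.423 and 0.889 RPKM (log2 fold change 2.40, SE 0.39, limma adjusted p = 0.0112). Mutant library 3 had the highest value of each, and the groups did not overlap in any of them. Both cubilin genes were lowest in wild-type library 1. Afp, the fetal serum protein alpha-fetoprotein, stood at 29.8, 6.89 and 66.5 RPKM, against 3.83, 6.72 and 1.47 RPKM (log2 fold change 2.49, SE 0.53, limma adjusted p = 0.0362), and Apob, the core protein of secreted lipoproteins, at 54.6, 7.38 and 93.9 RPKM, against 5.16, 5.65 and 2.39 RPKM (log2 fold change 2.77, SE 0.59, limma adjusted p = 0.0343). In both, mutant library 2 lay only just above the highest wild-type library. The other called members were Ctsh (2.01, limma adjusted p = 0.0227), a lysosomal protease gene, Soat2 (2.10, limma adjusted p = 0.0112), which esterifies cholesterol, and Apoa4 (1.82, limma adjusted p = 0.0433). Lrp2, the partner of cubilin in uptake, was not called (0.16, limma adjusted p = 0.944), nor was Ttr, the thyroid hormone carrier (1.40, limma adjusted p = 0.432).

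Among 14 transcription factors and surface markers of endoderm only Hnf4a was called, a rise, beside 1.30% of all genes called higher and 0.212% lower. The list had a median of 0.32. Hnf4a, a nuclear receptor that drives apolipoprotein genes, was at 5.31, 2.51 and 7.53 RPKM in mutant libraries, against 2.08, 2.01 and 0.2904 RPKM in wild-type libraries (log2 fold change 1.33, SE 0.31, limma adjusted p = 0.0461). Gata4 (0.25), Gata6 (-0.90) and Sox17 (0.48), earlier factors of the lineage, were not called. The basement membrane and parietal endoderm list had 0 of 13 called. Lgals2, which encodes galectin-2, was no member of a list and was at 10.3, 6.79 and 18.8 RPKM in mutant libraries, against 1.28, 2.23 and 0.806 RPKM in wild-type libraries (log2 fold change 2.35, SE 0.30, limma adjusted p = 0.00216). Lgmn, the lysosomal protease legumain, was at 80.5, 73.7 and 168 RPKM, against 32.8, 28.4 and 29.3 RPKM (log2 fold change 1.70, SE 0.26, limma adjusted p = 0.00582). In both genes mutant library 3 was the highest and the groups did not overlap.

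The number of calls in the visceral endoderm list was 10 without wild-type library 3, 8, 7 and 4 without mutant library 1, 2 and 3, and 1 without wild-type library 1 or 2. Without wild-type library 3 the share of all genes called higher was 5.82%, and without mutant library 1, 2 and 3 it was 2.5%, 0.331% and 0.254%. That share was 0.0776% and 0.106% without wild-type library 1 and 2. Of the list, Apoa2 passed in every leave-one-out fit. Amn, Soat2 and Apoa4 lost their calls without wild-type library 1 or 2, Afp and Ctsh also without mutant library 3, Apob also without mutant library 1 or 3, and Cubn had a limited call. Hnf4a was called in 2 of them, those that dropped wild-type library 3 or mutant library 2. The Lgals2 promoter at chr15:78855480-78855779, on the minus strand, is shown as one of a gene that rose in every leave-one-out fit with no H3K27me3 peak within 1 kb. It has 6 CG dinucleotides, in capitals, and the first mutant Suz12 list has a peak that overlaps it.
Lgals2: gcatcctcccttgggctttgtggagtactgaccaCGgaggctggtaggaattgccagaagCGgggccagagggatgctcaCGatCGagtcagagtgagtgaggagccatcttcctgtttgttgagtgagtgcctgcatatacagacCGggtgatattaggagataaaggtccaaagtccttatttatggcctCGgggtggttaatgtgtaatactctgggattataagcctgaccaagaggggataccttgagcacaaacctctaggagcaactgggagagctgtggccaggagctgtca

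Pluripotency transcripts were high in all 3 mutant libraries and in wild-type library 3. Pou5f1, which encodes OCT4, was at 112, 376 and 236 RPKM in mutant libraries, against 27.8, 28.7 and 222 RPKM in wild-type libraries (log2 fold change 1.91, SE 0.58, limma adjusted p = 0.117). The groups overlapped through wild-type library 3 alone. Nanog (2.15, limma adjusted p = 0.148) and Sox2 (1.73, limma adjusted p = 0.208), the other core factors, had the same pattern, and none of the 3 was called. Naive and general pluripotency genes had 0 of 27 called and a median of 1.98, and 11 of them had every mutant library above every wild-type library, beside 9.46% of all genes. Their mean level was 4.05, 5.16 and 4.75 in mutant libraries, against 1.96, 2.00 and 4.06 in wild-type libraries, on the log2(RPKM + 1) scale. With wild-type library 3 left out, 16 of the 27 and all 3 core factors were called higher, beside 5.82% of all genes.

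Some other genes that ES cells express did pass. Fgf4, the growth factor that ES cells secrete and that OCT4 and SOX2 activate, was at 33.2, 70.2 and 53.99 RPKM in mutant libraries, against 0.577, 0.869 and 18 RPKM in wild-type libraries (log2 fold change 3.74, SE 0.76, limma adjusted p = 0.0275). Wild-type library 3 lay between the other wild-type libraries and the mutant. Dppa5a, an RNA-binding KH-domain gene of ES cells, was at 211, 562 and 412 RPKM, against 4.93, 8.06 and 147 RPKM (log2 fold change 4.20, SE 1.0, limma adjusted p = 0.0497). Khdc3 (3.59, limma adjusted p = 0.0235) and Ooep (3.45, limma adjusted p = 0.0334), relatives whose products form part of the subcortical maternal complex of the egg, rose too, and since the family is made of similar genes whose reads could have been split, these 3 values are uncertain. Rpl39l, a paralog of a ribosomal protein gene that is known from testis, rose by 3.19 (limma adjusted p = 0.0356). All 5 had limited calls.

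Of 18 FGF pathway genes 3 rose, the ligand Fgf4 and the target transcription factors Etv4 and Etv5, and 0 fell. Over all genes 1.30% rose and 0.212% fell. Etv4 was at 6.38, 19.7 and 13.5 RPKM in mutant libraries, against 1.48, 1.85 and 5.61 RPKM in wild-type libraries (log2 fold change 1.86, SE 0.41, limma adjusted p = 0.0393), with no overlap. Etv5 was at 16.9, 42.8 and 33.2 RPKM, against 2.63, 3.19 and 20.5 RPKM (log2 fold change 2.12, SE 0.49, limma adjusted p = 0.0449), where wild-type library 3 lay above mutant library 1. Etv4 and Etv5 had limited calls. The receptors Fgfr1, Fgfr2 and Fgfr3 had log2 fold changes of -0.84, -0.96 and -1.72 and were not called. Of 15 Nodal pathway genes 1 rose, Pcsk6. The ligand Nodal (2.00, limma adjusted p = 0.0538), its coreceptor gene Tdgf1 (3.09, limma adjusted p = 0.0819) and its inhibitor Lefty2 (2.83, limma adjusted p = 0.154) did not pass, and in each wild-type library 3 lay above mutant library 1.

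Of 32 germline and meiosis genes measured, 4 rose and 0 fell, beside 1.30% and 0.212% of all genes. In this list 30 had a positive fold change, beside 6633 of all 14180 genes, and the median was 1.02. Tuba3a, a testis alpha-tubulin gene, was at 5.18, 15.2 and 7.42 RPKM in mutant libraries, against 0.0376, 0.0772 and 1.102 RPKM in wild-type libraries (log2 fold change 2.83, SE 0.49, limma adjusted p = 0.0151). Rhox5, an X-linked homeobox gene, was at 12.2, 25.1 and 69.1 RPKM, against 4.23, 4.49 and 6.22 RPKM (log2 fold change 2.29, SE 0.48, limma adjusted p = 0.0331), and mutant library 3 was the highest by far. Tex14, needed for the bridges between germ cells, rose by 2.45 (limma adjusted p = 0.0497), and Stra8, which opens meiosis, by 1.61 (limma adjusted p = 0.0497). Rhox5, Tex14 and Stra8 had limited calls, and Tuba3a lost its call without wild-type library 1 or 2 or mutant library 2. The list had 18 calls, beside 5.82% of all genes, when wild-type library 3 was left out. It had 9 and 1 when mutant library 1 and 3 were, beside 2.5% and 0.254% of all genes higher. It had 0 when mutant library 2 or wild-type library 1 or 2 was. The meiotic recombination gene Hsf2bp (2.84, limma adjusted p = 0.0448), the septin gene Sept1 (2.87, limma adjusted p = 0.0404) and the surface antigen gene Gpa33 (2.83, limma adjusted p = 0.0122) were the other large rises, with limited calls.

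Of the 8 genes of DNA methylation 1 was called, Dnmt3l, which rose, beside 1.30% of all genes. Dnmt1 (-0.12), Dnmt3a (0.01) and Dnmt3b (0.26), the methyltransferases themselves, and Tet1 (0.82), which oxidises methylcytosine, were not. Each of the next lists had a single rise, beside 1.30% of all genes. Plet1, a placental surface gene, rose among 15 trophoblast and keratin genes (1.15, limma adjusted p = 0.0098), and it lost its call when wild-type library 1 or 2 was left out. Esrp2, an epithelial splicing regulator, rose among 14 epithelial adhesion genes (1.02, limma adjusted p = 0.0196), with a limited call. Zic1, a zinc finger factor of dorsal neural tissue, rose among 11 neural genes, at 3.13, 1.26 and 0.883 RPKM in mutant libraries, against 0.0523, 0.0715 and 0.119 RPKM in wild-type libraries (log2 fold change 1.27, SE 0.28, limma adjusted p = 0.0416), where mutant library 1 was the highest. It lost its call when any library other than wild-type library 3 was left out.

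Of the 30 genes that fell, Crabp2 and Kif5c passed in every leave-one-out fit beside the Y-linked genes. Crabp2, which carries retinoic acid to its nuclear receptors, was at 8.65, 2.34 and 2.36 RPKM in mutant libraries, against 24.4, 23.7 and 26.8 RPKM in wild-type libraries (log2 fold change -2.44, SE 0.36, limma adjusted p = 0.00582). All wild-type libraries were close together and every mutant library was below them, with library 1 the nearest. Kif5c, a neuronal kinesin heavy chain, was at 6.29, 6.02 and 6.43 RPKM, against 12.7, 11.8 and 16.1 RPKM (log2 fold change -0.99, SE 0.16, limma adjusted p = 0.00849). The mutant libraries lay within a narrow range below all wild-type libraries. Crabp2 and Kif5c both lie within 1 kb of an H3K27me3 peak. Crabp2 was the 1 member called of 16 in the retinoic acid list, beside 0.212% of all genes called lower and 1.30% higher. The median of that list was -0.21. Rarb, the receptor gene that retinoic acid induces, was at 2.56, 0.304 and 0.527 RPKM in mutant libraries, against 3.76, 5.04 and 0.7796 RPKM in wild-type libraries (-0.95, limma adjusted p = 0.245).

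Genes for a Wnt receptor and a Wnt antagonist fell. Ror1, a receptor of noncanonical Wnt5a signals, was at 2.35, 0.1902 and 0.459 RPKM in mutant libraries, against 6.18, 4.84 and 2.61 RPKM in wild-type libraries (log2 fold change -1.57, SE 0.33, limma adjusted p = 0.0361). It was the 1 gene called of 18 for planar polarity and noncanonical Wnt signalling, beside 0.212% of all genes called lower and 1.30% higher. Sfrp1, a secreted Wnt antagonist, was at 15.4, 10.4 and 10.04 RPKM, against 38.3, 34.8 and 19.6 RPKM (log2 fold change -1.27, SE 0.24, limma adjusted p = 0.02002). Neither gene had overlapping groups. The remaining falls named by size were the matrix gene Spon1 (-1.41, limma adjusted p = 0.04998), the myosin chaperone gene Unc45b (-1.41, limma adjusted p = 0.0413), Hdgfl3 (-1.27, limma adjusted p = 0.0387), Rhobtb3 (-1.22, limma adjusted p = 0.0471), the clock-related repressor gene Bhlhe41 (-1.14, limma adjusted p = 0.0334) and Lgi2 (-1.07, limma adjusted p = 0.0334). Ror1, Sfrp1 and these 6 had limited calls.

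Heart, blood and mesenchyme genes had no call in either direction, and in these lists 1 library of each genotype stood with the other group. The heart regulator Mef2c was at 6.57, 0.187 and 0.207 RPKM in mutant libraries 1, 2 and 3 and 12.2, 9.21 and 0.161 RPKM in wild-type libraries 1, 2 and 3 (-1.28, limma adjusted p = 0.4699). The embryonic globin gene Hbb-bh1 was at 68.6, 0.628 and 0.0758 RPKM in the mutant, against 176, 365 and 0.1304 RPKM in wild type (-3.08, limma adjusted p = 0.436), and the matrix gene Postn at 41.3, 0.523 and 0.267 RPKM in the mutant, against 93.1, 112 and 0.362 RPKM in wild type (-2.49, limma adjusted p = 0.532). In each, mutant library 1 was on the side of wild-type libraries 1 and 2, and wild-type library 3 was near mutant libraries 2 and 3. The mean level of 14 cardiac regulators was 3.01, 1.21 and 1.05 in mutant libraries, against 3.34, 3.25 and 0.54 in wild-type libraries, on the log2(RPKM + 1) scale. That of 12 primitive blood genes was 2.17, 0.64 and 0.60, against 2.71, 3.09 and 0.45, and that of 30 fibroblast, mesenchyme and smooth muscle genes was 3.79, 1.96 and 1.77, against 4.23, 4.16 and 1.98. The medians of these lists were -0.79, -0.54 and -0.87, and those of sarcomere, endothelium and BMP signalling genes were -0.45, -0.27 and -0.61, with 0 called. Without wild-type library 3 the calls in the mutant were 8 lower and 1 higher of 14 cardiac regulators, 7 lower of 12 primitive blood genes and 3 lower of 30 mesenchyme genes, beside 3.41% lower and 5.82% higher of all genes in that fit.

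**Figure D3:**
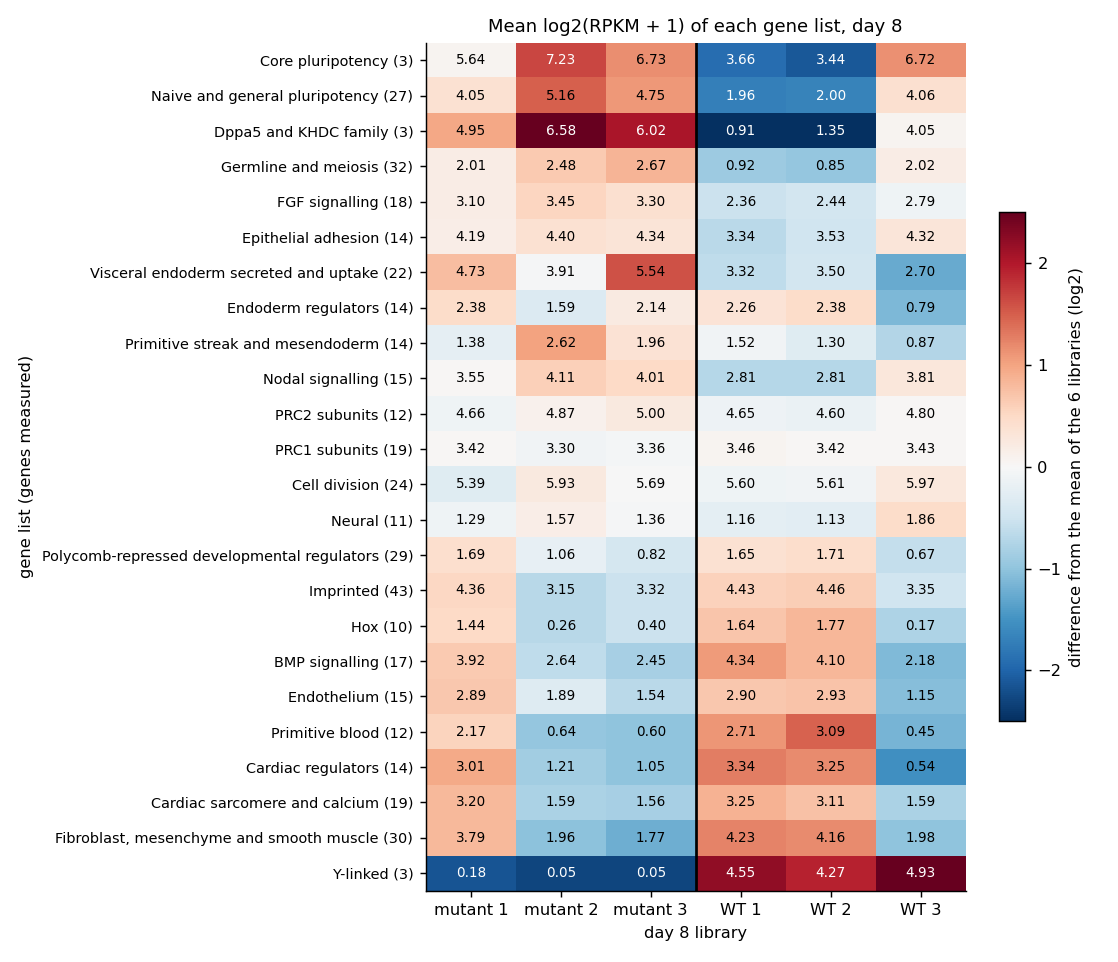
Mean log2(RPKM + 1) of 24 gene lists (rows, with the number of genes measured) in the 6 day 8 libraries (columns, mutant left of the black line, wild type right), printed in each cell and coloured by the difference from the mean of the row. The visceral endoderm, Dppa5 and KHDC family, FGF signalling and Y-linked lists divide by genotype without overlap. In the Dppa5 and KHDC family and FGF signalling lists, however, wild-type library 3 (4.05 and 2.79) lay nearer mutant library 1 (4.95 and 3.10) than the other wild-type libraries. Heart, blood, mesenchyme and Hox lists set mutant libraries 2 and 3 with wild-type library 3, and mutant library 1 with wild-type libraries 1 and 2.

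Hox genes are a classic PRC2 target family. Of 38 listed, 10 passed the filter on low values, 0 were called and the median was -0.40. Hoxb2 was at 3.31, 0.118 and 0.227 RPKM in mutant libraries and 13.8, 10.7 and 0.171 RPKM in wild-type libraries (-1.70, limma adjusted p = 0.2702), following the split of the heart and blood genes. Hoxb4 (-0.99, limma adjusted p = 0.377) had the same split.

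The remaining genes of the PRC2 list, 11 of 12, were not called. Ezh1 stood at 23.9, 23.8 and 24.7 RPKM in mutant libraries, against 16.4, 16.2 and 20.95 RPKM in wild-type libraries (0.43, limma adjusted p = 0.594), Eed at 27.8, 47.2 and 51.03 RPKM, against 36.7, 32.4 and 42.2 RPKM (0.14, limma adjusted p = 0.934), and Suz12 at 49.2, 63.4 and 129 RPKM, against 50.4, 44.6 and 94.3 RPKM (0.30, limma adjusted p = 0.84). Of 19 PRC1 genes 0 were called, with a median of -0.11. The lists of 14 primitive streak genes, 43 imprinted genes, 13 canonical Wnt targets and 24 hypoxia and glycolysis genes had 0 called, with medians of 0.75, -0.35, 0.26 and 0.13. Of 12 leukocyte markers 3 passed the filter and 0 were called.

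Called genes were compared with the authors' peak lists, which are CUT&RUN peaks of H3K27me3 and of the PRC2 subunit Suz12, as a description with no test. Of 183 called higher with a known position, 96 (52.5%) lay within 1 kb of an H3K27me3 peak of the merged wild-type stages, as did 18 of 30 called lower (60.0%), beside 29.97% of all 14164 positioned genes tested. Counting transcription starts within 1 kb of a peak instead, the shares were 43.1%, 39.1% and 23.7%. By the authors' deposited PRC2_target call, 79 of 163 genes called higher (48.5%) and 14 of 29 called lower (48.3%) were targets, beside 30.5% of all. A Suz12 peak of the wild-type day 8 list was within 1 kb of 61 of 183 genes called higher (33.3%), 7 of 30 called lower (23.3%) and 21.96% of all. In the 2 mutant day 8 lists the shares were 9.29% and 24.04% of genes called higher, 3 and 5 of the 30 called lower, and 8.93% and 20.2% of all. These are lists of single libraries with 6511 wild-type peaks and 3322 and 7735 mutant peaks, and such lists do not show a difference in binding. RefSeq promoters of genes called higher held a median of 16 CG dinucleotides per 300 bases over 144 genes, taking the richest window of each, those of genes called lower 17 over 23 genes, and those of all 11154 tested genes with a window 22. At least 1 CG was present in 94.6% of all promoters in the table.

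Fewer genes were called between the genotypes at earlier stages. At day 4, 4 genes were higher (0.0282% of those tested) and 3 lower (0.0212%), 0.0494% together. In ES cells 9 were higher (0.0635%) and 4 lower (0.0282%), 0.0917% together. Of the 184 genes that rose at day 8, 173 had a positive fold change at day 4 with a median of 0.52, where 2 of them were called, and 153 had one in ES cells with a median of 0.34, where 1 was called. Over all 14180 genes, 6876 were positive at day 4 and 7082 in ES cells, with medians of -0.0056 and -0.0002. All 30 that fell at day 8 were negative at day 4, where 3 were called. In ES cells 4 of the 30 were positive and 4 were called lower, with a median of -0.32. Cdkn2a was at 11.99, 16.9 and 8.07 RPKM in mutant and 1.24, 1.54 and 1.34 RPKM in wild-type libraries at day 4 (log2 fold change 2.44, limma adjusted p = 0.0215) and at 9.39, 15.2 and 8.51 RPKM in mutant and 3.16, 5.37 and 9.11 RPKM in wild-type ES cell libraries (0.86, limma adjusted p = 0.767). In these ES cell libraries, which were kept on fibroblast feeders, the mean level of the 30 fibroblast and mesenchyme genes was 2.25, 3.55 and 3.24 in mutant libraries 1, 2 and 3, against 2.39, 2.13 and 5.01 in wild-type libraries 1, 2 and 3, on the log2(RPKM + 1) scale. It was highest in wild-type library 3, which also had the highest wild-type Cdkn2a value, and its part in that value was not tested. Aire and Pcsk6 had log2 fold changes of 1.29 and 1.09 in ES cells and 1.22 and 1.28 at day 4, none of them called. Crabp2 was at 2.95, 3.46 and 3.64 RPKM in mutant and 13.7, 10.4 and 7.83 RPKM in wild-type libraries at day 4 (-1.39, limma adjusted p = 0.357).

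At day 4 Lgals2, Apoa2 and Lgmn had log2 fold changes of 0.40, 0.13 and -0.16, and the visceral endoderm list had a median of -0.01, with mean levels of 1.82, 1.83 and 2.19 in mutant libraries and 1.93, 1.87 and 1.97 in wild-type libraries on the log2(RPKM + 1) scale. Whether the change between day 4 and day 8 differed between genotypes was tested as an interaction in limma. With all 18 libraries 0 genes passed and 370 had an unadjusted p under 0.05, so no gene named here was shown by this test to change more in the mutant after day 4. Without wild-type day 8 library 3, 16 genes were called higher and 13 lower in that test.

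**Figure D4:**
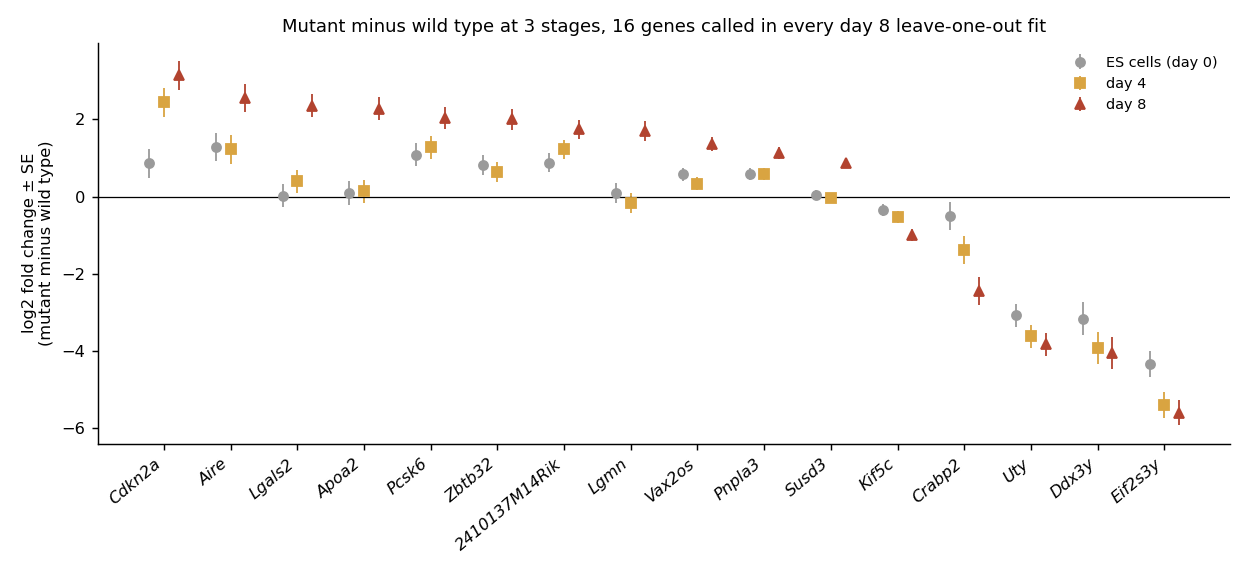
Log2 fold change between EZH2 mutant and wild type (y axis, with SE) in ES cells at day 0, day 4 and day 8 embryoid bodies for the 16 genes called in each day 8 leave-one-out fit. Cdkn2a lay at 0.86, 2.44 and 3.14, Lgals2 at 0.03, 0.40 and 2.35, and the Y-linked genes were low at all 3 stages.

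EZH2 was inhibited with GSK343 in embryoid bodies of the same age. GSK343 and DMSO embryoid bodies are in a table of their own, normalised separately, so the values are given side by side and not tested against the mutant. With GSK343, 2193 genes rose (15.6% of 14016) and 2241 fell (16.0%), 31.6% in all. Of the 184 genes that rose in the mutant 177 were tested there, of which 123 were higher, 8 lower and 46 not called. Of the 30 that fell 0 were higher, 14 lower and 16 not called. Dnmt3l was at 61.4 and 80.2 RPKM with GSK343, against 1.48 and 1.15 RPKM with DMSO (log2 fold change 4.94, limma adjusted p = 5.68e-08). Aire (2.89, limma adjusted p = 0.000373), Pcsk6 (2.57, limma adjusted p = 2.11e-06) and Zbtb32 (1.88, limma adjusted p = 0.00283) rose with it. Cdkn2a was at 15.4 and 14.5 RPKM with GSK343, against 3.54 and 2.91 RPKM with DMSO (1.92, limma adjusted p = 0.000405), and Crabp2 at 6.57 and 4.49 RPKM, against 18.5 and 26.4 RPKM (-1.84, limma adjusted p = 0.00321). Among the other genes called in every leave-one-out fit, the log2 fold change with GSK343 was 0.89 for Pnpla3 (limma adjusted p = 0.00136), 1.95 for 2410137M14Rik (limma adjusted p = 0.000385) and -0.39 for Kif5c (limma adjusted p = 0.0745). Vax2os was at 0.638 and 1.53 RPKM with GSK343, against 0.0759 and 0 RPKM with DMSO (0.97, limma adjusted p = 0.01195), and Apoa2 and Susd3 had no value tested there.

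Endoderm genes were among those that moved in opposite directions. The 8 genes called higher in the mutant and lower with GSK343 were Lgals2, Lgmn, Prss12, Apob, Afp, 4933402E13Rik, Apoa4 and Hnf4a. Afp was at 0.2397 and 0.362 RPKM with GSK343, against 15.2 and 9.02 RPKM with DMSO (log2 fold change -3.29, limma adjusted p = 1.49e-06), and Lgals2 at 0.845 and 0 RPKM, against 4.73 and 4.43 RPKM (-2.04, limma adjusted p = 0.000515). Counts of calls in lists are not alike in scale between the comparisons. Over all genes tested 15.6% rose and 16.0% fell with GSK343, against 1.30% and 0.212% in the mutant. Of 21 visceral endoderm genes tested with GSK343 1 rose and 11 fell, with a median of -1.52, where the mutant had 8 rises, 0 falls and a median of 1.77. Naive pluripotency genes had 24 rises and 0 falls of 27 with GSK343 and a median of 2.87. Cardiac regulators had 0 rises and 11 falls of 13 and primitive blood genes 0 and 12 of 12, lists with 0 calls in the mutant. The Y-linked genes were not called with GSK343, nor was Ezh2 (0.22, limma adjusted p = 0.5096).

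**Figure D5:**
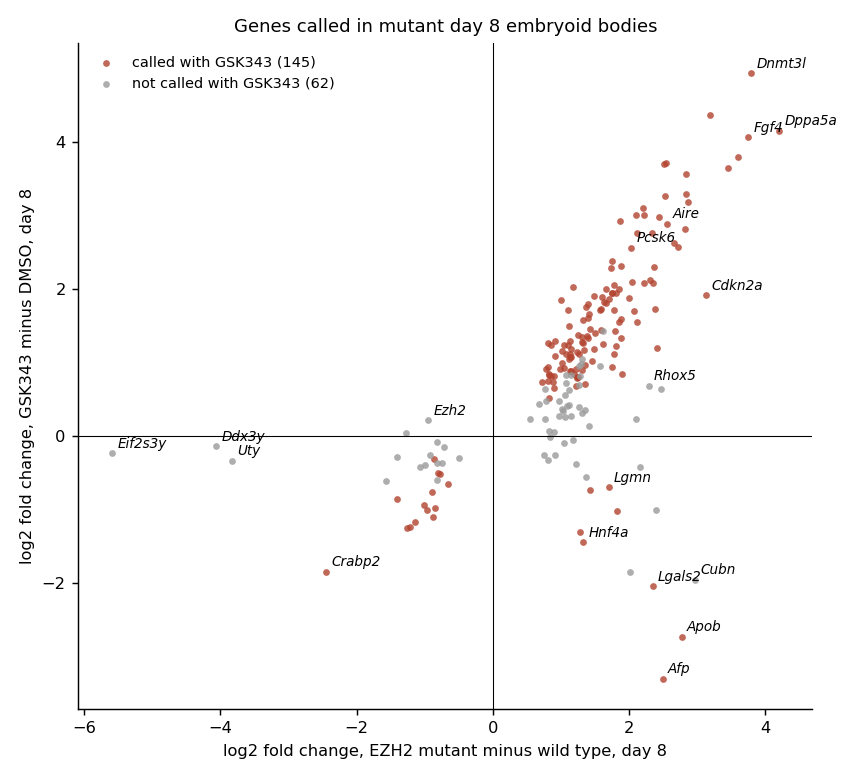
Log2 fold change of the 207 genes called in mutant day 8 embryoid bodies and tested in both tables, EZH2 mutant minus wild type (x axis) against GSK343 minus DMSO (y axis), red where called with GSK343 (145) and grey where not (62). Dnmt3l, Fgf4 and Dppa5a lie high on both axes, Apob, Afp and Lgals2 are higher in the mutant and lower with GSK343, and the Y-linked genes are low on the x axis and near 0 on the y axis.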

How the data were processed

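RNA-seq libraries were grouped by the labels' condition and age, with columns matched to samples by name. The authors deposited RPKM, from reads on mm10 per the submitters' processing notes. Those notes name featureCounts 1.6.1, STAR 2.5.3 and HOMER 4.10.3 with RNA-seq, and Bowtie2 2.3.4.3 and HOMER 4.10.3 with CUT&RUN. They also name edgeR, without a version, and give no role for any of these tools. The annotation, strand setting and filters are not stated there. Low RPKM step by whole reads, so read numbers could be recovered, and 100% of values came within 0.02 of a whole read (138 of 14772 genes had no length). The 18 wild-type and mutant libraries in 6 groups entered 1 limma 3.58.1 fit in R 4.3.3 (lmFit, eBayes with trend) on log2(RPKM + 1), over the 14180 genes with RPKM of at least 0.5 in 3 libraries. The 12 GSK343 and DMSO libraries had a fit of their own, with at least 0.5 in 2 libraries. The authors' deposited PRC2_target call and peak coordinates (mm10) were used as given. Gene positions and promoters came from RefSeq (GRCm38.p6), and 144 of 184 and 23 of 30 called genes had a promoter. The fit was also run on simulated data with known changes. The simulated noise was independent between genes and libraries, so that run does not cover libraries that side with the other genotype. Named genes are the 12 largest rises and 12 largest falls with no overlap and a higher group mean of at least 1 RPKM, up to 4 members of smallest p per list, a set of key genes, and genes called in every leave-one-out fit. Others, among them Tmc6, Tmc8, Ttr, Lrp2 and Ccng1, and the neighbour pairs were chosen after their values were seen. The members and lists were chosen with earlier results of these data known. Replicate numbers were not used as pairs, since the labels give them no meaning and same-numbered day 8 libraries correlated in their deviations from the group means at 0.746, -0.259 and 0.635.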

Additional observations from a re-analysis of the deposited data

How the results depend on the processing

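Counts of day 8 calls between mutant and wild type moved by more than 1.5 times from 184 higher and 30 lower under several settings, and none of the 50 named genes called changed sign in any. They were 0 and 3 with day 8 libraries alone, 39 and 8 by voom, 2074 and 1969 with library weights, and 11 to 825 and 5 to 483 with 1 library left out. Lower calls were 13 with a pseudocount of 0.1 and 57 with quantile normalisation. With the replicate number as a block, for which the labels give no pairing, they were 439 (3.1% of genes) and 177 (1.25%). Calls higher then became 10 of 27 naive pluripotency genes, 5 of 15 Nodal genes (1 lower), 11 of 22 visceral endoderm genes and 9 of 32 germline genes. The number does move with library composition: over the 6 groups Rn45s held 18.3% to 57.9% of reads in libraries numbered 2, 6.02% to 13.4% in those numbered 1 and 4.08% to 5.63% in those numbered 3, and depth was lowest in number 2 and highest in number 3 of every group. Whether the number marks a batch is not stated by the labels. Of the 50, 3 kept the call with day 8 libraries alone, 21 by voom, 16 without wild-type library 1 or 2, 22 without mutant library 2 or 3, 48 and 50 when mutant library 1 and wild-type library 3 were dropped, and 39 to 50 under the remaining settings. The day 4 to day 8 interaction had 0 called in 9 fits with all day 4 and day 8 libraries, 1 of them without the ES cell libraries. It had 0 to 16 higher and 0 to 13 lower with 1 library left out. GSK343 calls were 1354 and 1350 with its day 8 libraries alone, and 1331 to 1951 and 1401 to 1971 with 1 left out. The setting of transcription starts was chosen after seeing the data, and gave H3K27me3 shares of 43.1% and 39.1% in place of 52.5% and 60.0%. Genes in both mutant Suz12 lists were 4.37% of those called higher and 6.67% of those called lower, 0% and 0% by starts, and 9.29% and 24.04% of those called higher by each list alone. The cause was not tested for any of these. Depth was lowest in mutant library 2, where 38% of reads were from Rn45s.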
